A study of Rattus norvegicus with 6 samples.

Results

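The genes of neurosteroid synthesis and steroid sulfate uptake comprised Star, Tspo, Cyp11a1, Srd5a1, Akr1c14, Hsd17b10, Cyp7b1, Slc10a6 and Sts, 9 of the 38445 genes counted in the rat amygdala 1 h after ethanol. They were taken by name for their roles, with earlier results of these data known, and each of the 9 symbols was matched to exactly 1 gene. Neurosteroids are steroids that the brain makes or converts locally. Star and Tspo help cholesterol into mitochondria, Cyp11a1 cleaves its side chain to give pregnenolone, and Srd5a1 and Akr1c14 reduce progesterone to allopregnanolone, a potentiator of GABA-A receptors. Steroids also circulate as sulfates, which the carrier Slc10a6 takes into cells and the sulfatase Sts splits to free steroid, while Hsd17b10 and Cyp7b1 oxidise or hydroxylate steroids further.

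The tissue was the amygdala (central, medial and basolateral nuclei) of adult male wild-type Sprague Dawley rats, a brain region that takes part in anxiety and in its relief by ethanol. The control group received an intraperitoneal injection of saline, the ethanol group received ethanol at 1 g/kg by the same route, and the tissue was taken after 1 h in both. Each group had 6 rats, and RNA from 2 rats was pooled for a library, so that there were 3 libraries per group and variation between single rats could not be measured. The values are numbers of reads assigned to the exons of each gene, between 62576504 and 70755739 per library. Levels are given as CPM, counts scaled to a common library size after TMM correction for library composition. Ethanol was tested against control over 18141 genes with the quasi-likelihood method of edgeR. The p-values set the group difference against the spread between these pools, which the method estimates with information from all genes.

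The libraries differed in markers of neighbouring tissues. The 10 markers of choroid plexus epithelium, the tissue that makes cerebrospinal fluid, summed to between 529 and 1150 CPM in the controls and to 14, 15.6 and 493 CPM in ethanol 1, 2 and 3, with 4 of the 9 tested markers lower after ethanol at an unadjusted p below 0.05 and the marker Otx2 under the filter on low counts. The 10 markers of motile cilia and ependyma, the ciliated lining of the ventricles, summed to 120 to 141 CPM in controls and 98.5 to 115 CPM after ethanol without overlap, and 6 of them were lower at an unadjusted p below 0.05. The 8 oligodendrocyte markers summed to 3750 to 8750 CPM in controls and 4590 to 10100 CPM after ethanol, and the 8 hypothalamic peptide markers to 16.2 to 116 CPM and 21.5 to 331 CPM, in both cases highest in ethanol 3. All 10 telencephalic neuron markers were expressed, with sums of 3050 to 3440 CPM in controls and 2870 to 3880 CPM after ethanol, whose ranges overlapped. In such tissue, fewer cells of a type and less RNA per cell cannot be told apart. Of 7 adrenal and gonadal markers only Cyp11b2 passed the filter on low counts, and their sum was 0.915 to 1.3 CPM in controls and 1.13 to 2.29 CPM after ethanol.

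Of the 9 genes, 8 passed the filter and 1, Cyp11a1, did not. Slc10a6 was the only member with an unadjusted p below 0.05, and it was higher after ethanol. This threshold was passed upwards by 1.57% of all genes tested and downwards by 2.58%, where 0 members were lower. Slc10a6 was also the only member whose ethanol and control libraries did not overlap, against 3.65% of all genes entirely higher and 5.19% entirely lower after ethanol. The members were chosen with earlier results of these data known, so these shares give context and are no test of the members. After Benjamini-Hochberg adjustment over all genes, at the study's threshold of 0.2, edgeR called 0% of genes and 0 members, although 753 genes had an unadjusted p below 0.05. Under the same threshold edgeR's likelihood ratio test called 77 genes and DESeq2 75. In the study's own analysis of its RNA-seq, genes did pass 0.2, with Slc10a6 among them as higher after ethanol. The study also reported higher Slc10a6 by qPCR. The median log2 fold change of the 8 tested members was 0.02, beside 0.006 over all genes, with 4 positive and 4 negative values.

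Slc10a6, also called SOAT, imports sulfated steroids with sodium. In Rnor_6.0 it lies on chromosome 14 from 7618022 to 7682377 on the plus strand, in 6 exonic blocks of 1113 bases in all that no other gene's exons overlap. Control libraries held 59, 69 and 40 of its reads, and ethanol libraries 90, 104 and 128. In CPM these were 0.902, 0.971 and 0.631 in controls and 1.4, 1.62 and 1.84 after ethanol. Every ethanol library lay above every control library, with a gap between 0.971 and 1.4 CPM. The control mean was 0.835 ± 0.18 CPM (SD, n = 3) and the ethanol mean 1.62 ± 0.218 CPM (SD, n = 3). The log2 fold change was 0.95, with a standard error of 0.21 and a 95% interval of 0.47 to 1.44. By edgeR's quasi-likelihood method the unadjusted p was 0.00201, and the p adjusted by Benjamini-Hochberg was 0.818, so the difference did not pass the adjusted threshold. An exact 2-sided permutation test gave p = 0.1, the smallest that 3 libraries against 3 allow. With edgeR's likelihood ratio test and with DESeq2, the adjusted p of Slc10a6 was 0.0486 and 0.139, both below 0.2. In the fits that left out 1 library each, the log2 fold change of Slc10a6 lay between 0.79 and 1.08 and its adjusted p, by edgeR, between 0.383 and 1. Without ethanol 3, the ethanol library with most choroid plexus RNA, it was 0.85. The library order of Slc10a6 matched those of the 10 marker lists in 4 to 10 of 15 pairs of libraries, with 10 for the telencephalic neuron, oligodendrocyte and adrenal and gonadal lists, 5 for choroid plexus and 4 for cilia and ependyma. The part of tissue content in the Slc10a6 values was not tested.

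The difference in Slc10a6 is shown beside its genomic neighbours and the genes of most similar pattern in the plot of log2 differences from the control mean. On the lower-coordinate side, the nearest tested gene was Aff1, a transcription elongation factor, 233.1 kb away, with a log2 fold change of 0.07 (95% interval -0.16 to 0.30). On the other side Ptpn13, a tyrosine phosphatase, lay 6.2 kb beyond the end of Slc10a6 on the opposite strand. Ptpn13 was at 17.6, 17.6 and 23.1 CPM in controls and 16, 18.5 and 21.3 CPM after ethanol, so the groups overlapped, and its log2 fold change was -0.06 (95% interval -0.39 to 0.27). Among 15908 tested genes with a mean of at least 0.5 CPM, the profiles over the 6 libraries nearest to that of Slc10a6 were those of Apold1, an endothelial early-response gene, Map3k6, a stress-activated kinase, and Acer2, an alkaline ceramidase. Their root mean square differences from the Slc10a6 profile were 0.101, 0.192 and 0.197 on the log2 scale. Apold1 went from 10.5, 10.3 and 7 CPM in controls to 14.6, 16.4 and 16.5 CPM after ethanol. In all 3, as in Slc10a6, control 3 was the lowest of the 6 libraries and ethanol 3 the highest. These genes were ranked on the same libraries that show the difference, so their likeness is a description and has no test.

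**Figure D1:**
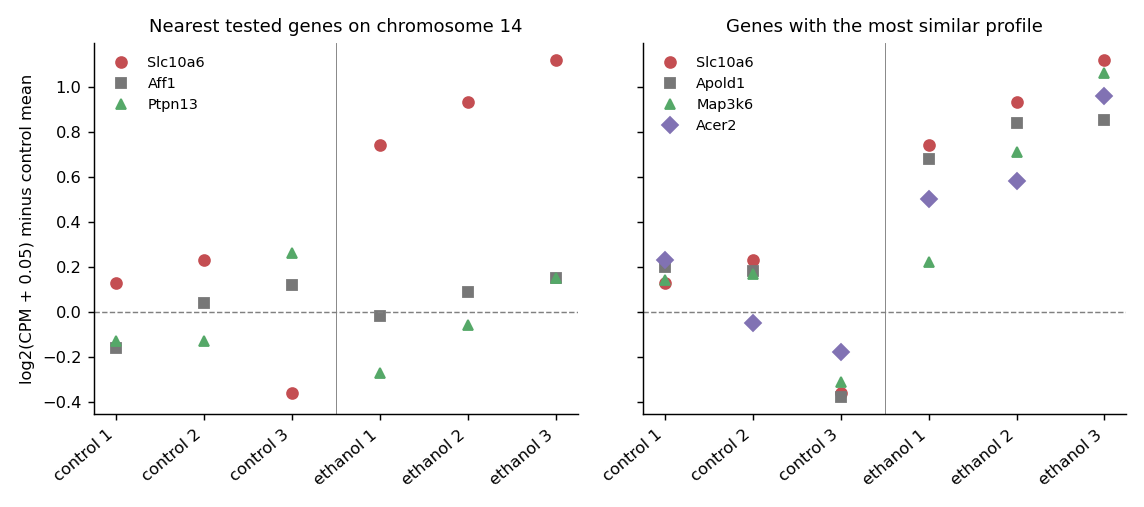
Difference of each library from the control mean, in log2(CPM + 0.05), for Slc10a6 with its nearest tested neighbours Aff1 and Ptpn13 (left) and with the 3 genes of most similar profile (right), in which each point is 1 library. Slc10a6 stood 0.74 to 1.12 above the control mean in the ethanol libraries, while Aff1 and Ptpn13 stayed between -0.27 and 0.26 in all 6 libraries.

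The promoters of Slc10a6 and of 2 members that are compared with it, Sts and Srd5a1, are shown because Slc10a6 was the member with an unadjusted p below 0.05, and the libraries of Sts and Srd5a1 were ordered alike against the marker lists (given with their levels). The sequences are RefSeq's, 250 bases before to 50 bases after 1 start site per gene in the build GRCr8, which is not the build of the counts. Of the 9 members, 6 had a promoter in that table. Capitals mark matches, on either strand, to 7 short motifs: ACANNNTGT (the core of a glucocorticoid response element), ACGTG (the core of a hypoxia response element), AAGGTCA (a steroidogenic factor half-site), TGACG (a cAMP response element half-site), GGGCGG (a site of the Sp1 type, called GC box), TATAAA (the core promoter element of that name) and CCAAT (the binding site of factors such as NF-Y).
Slc10a6, GRCr8, plus strand, chr14:6385325-6385624: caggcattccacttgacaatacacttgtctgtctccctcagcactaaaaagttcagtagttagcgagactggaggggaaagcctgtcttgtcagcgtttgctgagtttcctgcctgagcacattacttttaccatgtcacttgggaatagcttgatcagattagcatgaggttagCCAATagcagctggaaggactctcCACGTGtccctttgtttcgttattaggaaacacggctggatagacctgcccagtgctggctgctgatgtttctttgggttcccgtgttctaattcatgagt
Sts, GRCr8, plus strand, chrX:46102510-46102809: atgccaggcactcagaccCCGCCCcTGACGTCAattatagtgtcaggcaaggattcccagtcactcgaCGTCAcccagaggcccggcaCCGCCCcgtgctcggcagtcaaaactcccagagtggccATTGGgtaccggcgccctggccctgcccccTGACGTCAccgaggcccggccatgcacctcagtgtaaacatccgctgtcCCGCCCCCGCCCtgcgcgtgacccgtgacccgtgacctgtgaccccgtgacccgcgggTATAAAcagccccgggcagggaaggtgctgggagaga
Srd5a1, GRCr8, plus strand, chr1:35514664-35514963: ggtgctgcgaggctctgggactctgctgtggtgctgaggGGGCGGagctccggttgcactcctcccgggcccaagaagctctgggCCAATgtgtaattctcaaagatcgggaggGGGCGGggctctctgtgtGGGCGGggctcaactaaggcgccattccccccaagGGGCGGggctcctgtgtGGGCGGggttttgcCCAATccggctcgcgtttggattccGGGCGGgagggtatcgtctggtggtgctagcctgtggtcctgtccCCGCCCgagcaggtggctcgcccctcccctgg

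The Slc10a6 window held ACGTG on both strands at overlapping positions, which together read CACGTG, starting 51 bases before the start site. ACGTG occurred in 19.7% of the 27457 promoters of the same length and, among the 6 members' windows, only in that of Slc10a6. A CCAAT box, found in 37.7% of all promoters, stood 75 bases before the start site of Slc10a6. Neither ACANNNTGT (6.6% of all promoters) nor AAGGTCA (4.37%) matched any of the 6 members' windows. The Slc10a6 promoter had 47.3% G and C and 6 CpG dinucleotides, below the median of 52.3% over all promoters. The Sts and Srd5a1 promoters were richer, with 66.7% and 67.7% G and C and 24 and 19 CpG dinucleotides. Sts held 5 matches to TGACG (22.0% of all promoters), of which 4 pair up on opposite strands as TGACGTCA at 2 places, 4 GC boxes and a TATA box match 14 bases after the start. Srd5a1 held 7 GC boxes (34.9% of all promoters) and 2 CCAAT boxes. These matches describe the letters in the windows only.

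Sts, the steroid sulfatase that acts after import, lies on chromosome X from 45420418 to 45428748 in 10 exonic blocks. It was at 16.5, 15.1 and 16 CPM in controls and 15.2, 15.8 and 20.5 CPM after ethanol. Ethanol 1 and 2 lay within the control range and ethanol 3 above it. The means were 15.9 ± 0.687 CPM (SD, n = 3) and 17.2 ± 2.89 CPM (SD, n = 3), with a log2 fold change of 0.11 (95% interval -0.17 to 0.39, unadjusted p = 0.378 from edgeR's quasi-likelihood test). Without ethanol 3 the log2 fold change of Sts was -0.03. Within the sulfate route, the log2 fold change was thus 0.95 for the carrier and 0.11 for the sulfatase, with intervals that do not overlap. Whether the 2 changes differ from each other was not tested.

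Star, which moves cholesterol to the inner mitochondrial membrane, lies on chromosome 16 from 71036204 to 71040847 and was expressed at a low level. Its counts were 50, 70 and 52 in controls and 37, 45 and 56 after ethanol, or 0.765, 0.985 and 0.82 CPM against 0.576, 0.699 and 0.804 CPM. Ethanol 1 and 2 lay below all controls, while ethanol 3 lay above control 1. The log2 fold change of Star was -0.30 (95% interval -0.78 to 0.17, unadjusted p = 0.176 from edgeR's quasi-likelihood test). It ran, when single libraries were left out, from -0.43 without ethanol 3 to -0.19 without control 2, and it was also -0.19 without ethanol 1. The groups did not overlap without ethanol 3 or without control 1. Fewer libraries separate more easily, and the share of all genes that did so in these settings was not computed. The order of the libraries in Star matched that of the summed choroid plexus markers in 14 of 15 pairs of libraries, and that of the cilia and ependyma markers in 13 of 15. These were the closest of the 10 marker lists for this gene, among 80 combinations of member and list looked up after the levels were seen. The part of these tissues in the Star values was not tested.

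Tspo, a cholesterol-binding protein of the outer mitochondrial membrane that is used as a marker of reactive glia, lies on chromosome 7 from 124460358 to 124470610. It was at 1.53, 2.45 and 2.41 CPM in controls and 1.78, 1.88 and 2.53 CPM after ethanol. The groups overlapped, with the lowest value in control 1 and the highest in ethanol 3. Its log2 fold change of -0.05 had a 95% interval from -0.57 to 0.48, so these libraries could not show a change within it. The 8 microglial markers summed to 370 to 438 CPM in controls and 383 to 449 CPM after ethanol, ranges that overlapped as well.

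Cyp11a1, the side-chain cleavage enzyme that starts steroid synthesis from cholesterol, was at the limit of detection. It lies on chromosome 8 from 62798317 to 62809848, and 81 bases of its exons overlap Ccdc33 on the opposite strand, which the strand-specific counting keeps apart. Its counts were 0, 3 and 0 in controls and 1, 2 and 0 after ethanol, a total of 3 reads in each group. At this depth, 3 reads correspond to 0.0424 to 0.0479 CPM per library, and no fold change is given. The floor covers counting error only, since several reads can stem from 1 molecule in libraries that carry no molecular identifiers. Of the other early enzymes, Cyp17a1, which makes DHEA, was also under the filter, and Hsd3b1 was not analysed here. The 3beta-hydroxysteroid dehydrogenase family genes Hsd3b2, Hsd3b3 and Hsd3b5 had no count in any library. Reads shared between such relatives would have been left out, so the lack of counts does not show that these genes were silent. Hsd3b7 of the same family passed the filter, with means of 8.6 CPM in controls and 8.86 CPM after ethanol. Its level does not stand for that of the relatives without counts.

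Srd5a1, a 5alpha-reductase of the brain, makes the direct precursor of allopregnanolone and lies on chromosome 1 from 36320504 to 36354694. It was at 23.1, 16 and 18.5 CPM in controls and 15.7, 19.7 and 25.7 CPM after ethanol. The highest and the lowest of the 6 libraries were both ethanol libraries. The means were 19.2 ± 3.59 CPM (SD, n = 3) and 20.4 ± 5.03 CPM (SD, n = 3), and the log2 fold change was 0.09 (95% interval -0.36 to 0.54, unadjusted p = 0.667 from edgeR's quasi-likelihood test). The libraries of Srd5a1 were ordered like the summed oligodendrocyte markers in 14 of 15 pairs of libraries, and those of Sts likewise in 14 of 15. Against the hypothalamic peptide markers the orders matched in 12 of 15 pairs for Srd5a1 and in 14 of 15 for Sts. Control 1 and ethanol 3 were the highest libraries for Srd5a1, for Sts and for both lists. These orders were looked up for 8 members and 10 lists, 80 combinations with 3 to 14 pairs in the same order, after the levels were seen. The part of oligodendrocyte or hypothalamic content in the Srd5a1 and Sts values was not tested.

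Akr1c14, the rat 3alpha-hydroxysteroid dehydrogenase that completes allopregnanolone, lies on chromosome 17 from 69806095 to 69827125 among closely related Akr1c genes, whose shared reads the counting would leave out. It was at 3.0, 2.1 and 4.54 CPM in controls and 2.17, 3.68 and 3.23 CPM after ethanol. The control libraries spanned the whole ethanol range, and the SD was 38.5% of the mean in controls, the widest of the 8 tested members. The log2 fold change of -0.08 had a 95% interval of -0.78 to 0.62. It turned to 0.25 without control 3 and to 0.11 without ethanol 1. The library order of Akr1c14 matched that of the summed markers of the leptomeninges, membranes over the brain, in 13 of 15 pairs, as did that of Hsd17b10. These markers summed to 176 to 331 CPM in controls, highest in control 3, and to 122 to 246 CPM after ethanol. The part of this tissue in the Akr1c14 and Hsd17b10 values was not tested.

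Hsd17b10, a mitochondrial dehydrogenase that can oxidise allopregnanolone and also acts in fatty acid and isoleucine breakdown, was the most abundant member per length. It lies on chromosome X from 21696796 to 21699241 and was at 33.3, 32.4 and 37.3 CPM in controls and 29.4, 33.7 and 36 CPM after ethanol. The groups overlapped, and the log2 fold change was -0.06 (95% interval -0.27 to 0.16). Cyp7b1, which hydroxylates DHEA, pregnenolone and oxysterols, spans 169.4 kb of chromosome 2 from 102701903 to 102871257. Its level was 30.8, 37 and 37.2 CPM in controls and 34, 37.6 and 39.5 CPM after ethanol. The log2 fold change of Cyp7b1 was 0.08 (95% interval -0.14 to 0.30). Its groups separated only when ethanol 1 was left out, a setting for which the share of all genes was not computed. Hsd17b10 and Cyp7b1 had the narrowest intervals of the tested members.

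**Figure D2:**
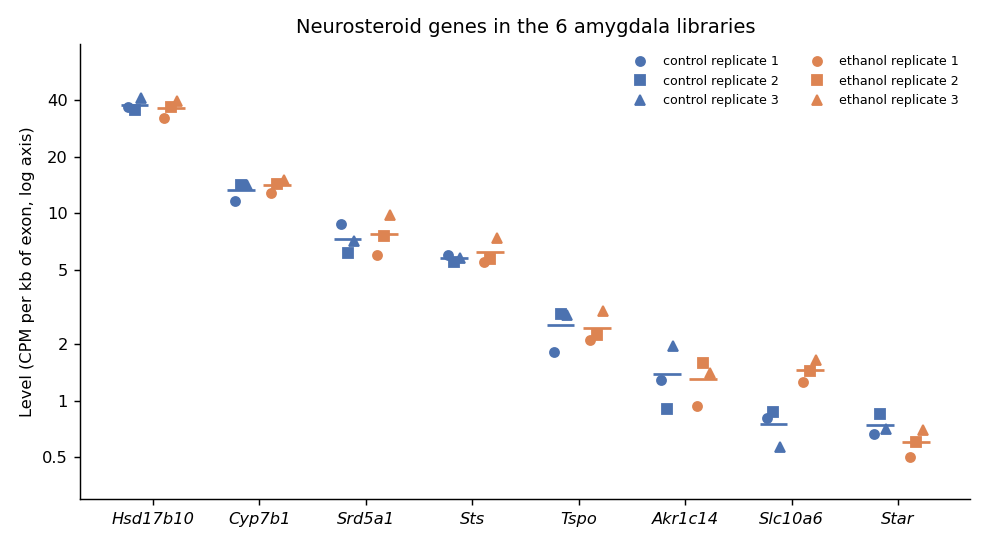
CPM per kb of exon (log axis) of 8 members in each library, ordered by their mean, where points are single libraries and short lines are group means (n = 3). Only the Slc10a6 groups are apart, and Cyp11a1, with 3 reads per group, is left out.

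Compared per length of exon, the levels fell into steps. Hsd17b10 led at a mean of 37.1 CPM per kb over the 6 libraries, with no overlap with Cyp7b1 at 13.7 CPM per kb. Srd5a1 at 7.57 and Sts at 5.99 CPM per kb came next, below Cyp7b1 in every library, and their ranges overlapped each other. Tspo at 2.49, Akr1c14 at 1.35, Slc10a6 at 1.1 and Star at 0.672 CPM per kb formed a chain in which each overlapped the next. Cyp11a1, at 0.00832 CPM per kb, was below all others in every library. In this order the enzymes that act on formed steroids, apart from Akr1c14, stood above Tspo and Star, and the side-chain cleavage enzyme stood last. Slc10a6 went from 0.75 to 1.45 CPM per kb and so from beside Star (0.742 CPM per kb in controls) to above Akr1c14 (1.31 CPM per kb after ethanol), although the libraries of Slc10a6 and Akr1c14 overlapped.

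The rest of the pathway was followed through 79 further genes, of which 75 had a row under their symbol and 57 passed the filter. At an unadjusted p below 0.05, 2 of the 57 were higher and 2 lower after ethanol (3.51% each way, beside 1.57% and 2.58% of all genes), and the adjusted p of all 57 was above 0.2. The median log2 fold change of the 57 was 0.04. Of the 9 genes of cholesterol delivery, Stard4, a cytosolic sterol carrier, was higher, from 17.6, 16.1 and 16.2 CPM to 19.2, 19.7 and 22.4 CPM, a log2 fold change of 0.30 (standard error 0.08, unadjusted p = 0.00829 from the same edgeR test). Dbi, a peptide ligand of Tspo and the most abundant gene of this group at 433 CPM per kb, had a log2 fold change of 0.01. Of the steroid-synthesis genes, Cyp19a1, the aromatase that makes estradiol, was lower, from 16.8, 19.6 and 17.9 CPM to 15.8, 12.2 and 13.9 CPM, with a log2 fold change of -0.37 (standard error 0.11, unadjusted p = 0.0103, likewise by edgeR). In both genes all ethanol libraries lay on one side of all controls. Of the 57 genes, 3 lay entirely higher and 3 entirely lower after ethanol, these 2 included. Over all genes tested the shares were 3.65% and 5.19%.

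Cyp11b2, aldosterone synthase, had a log2 fold change of 0.90 at low counts of 66, 42 and 44 in controls and 124, 54 and 106 after ethanol (unadjusted p = 0.0278 from edgeR's quasi-likelihood test). Its groups overlapped. Reads that align to both Cyp11b2 and its near-identical relative Cyp11b1 were not counted, while a Cyp11b1 read aligned to Cyp11b2 alone would have been. The value of Cyp11b2 is therefore uncertain. Slco1c1, a carrier of thyroid hormones and steroid conjugates at the blood-brain barrier, was lower, from 100, 101 and 108 CPM to 98.6, 85.6 and 85.9 CPM, a log2 fold change of -0.20 (unadjusted p = 0.0259 from the same edgeR test). The summed endothelial and mural markers were 280 to 315 CPM in controls and 277 to 315 CPM after ethanol. Slco1a5, a related carrier, had the lowest log2 fold change of the list at -2.09 (unadjusted p = 0.0677), with 0.187, 0.109 and 3.39 CPM in ethanol 1, 2 and 3 against 3.38 to 8.15 CPM in controls. Ethanol 1 and 2 are also the libraries in which the choroid plexus markers were lowest, and the part of that tissue in the Slco1a5 values was not tested.

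**Figure D3:**
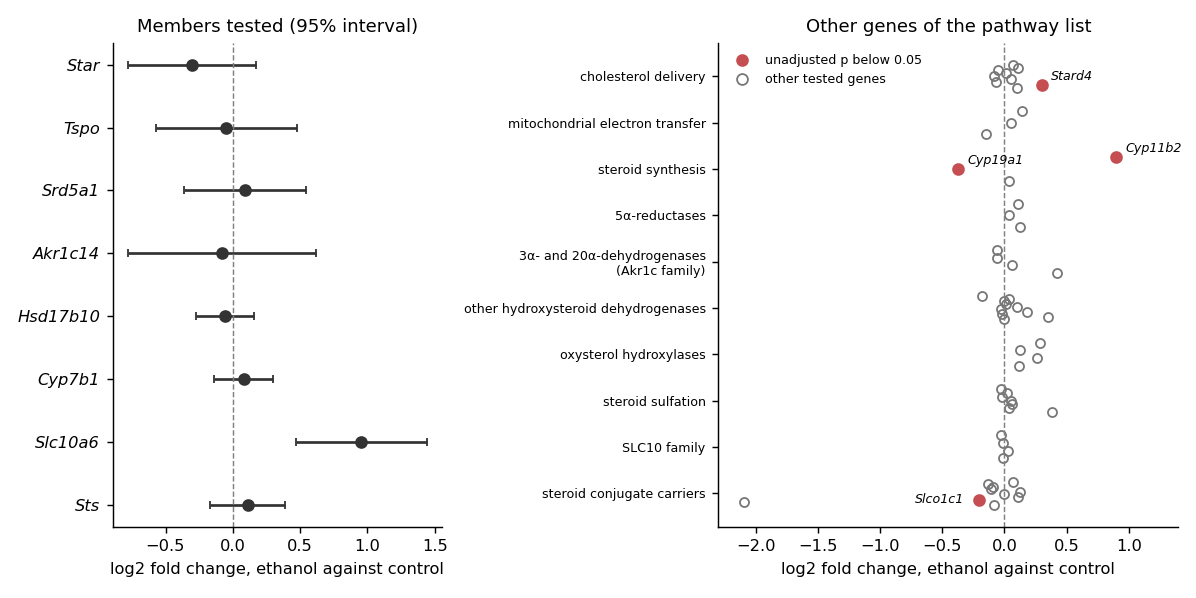
Log2 fold change of the ethanol against the control group for the 8 tested members with 95% intervals (left) and for the 57 tested pathway genes by group (right), where filled red points have an unadjusted p below 0.05. The Slc10a6 interval of 0.47 to 1.44 is the only one of the members that lies wholly to one side of 0, and Stard4, Cyp11b2, Cyp19a1 and Slco1c1 are the 4 red points.

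None of the 4 tested relatives of Slc10a6 in the SLC10 family had an unadjusted p below 0.05. Of 6 other SLC10 carriers, Slc10a3, Slc10a4, Slc10a5 and Slc10a7 passed the filter, with log2 fold changes from -0.03 to 0.03. Slc10a3 led them at 2.62 CPM per kb. Slc10a1 and Slc10a2, the bile acid carriers of liver and gut, were under the filter and so were not tested. The interval of Slc10a4, a vesicular protein of monoamine and cholinergic neurons, ran from -1.19 to 1.25. These libraries could not show a change of that gene within this interval. The other 5alpha-reductases Srd5a3 (7.3 CPM per kb) and Srd5a2 (0.195 CPM per kb) had log2 fold changes of 0.04 and 0.13. Tecr, a fatty acid enoyl reductase of the same superfamily and the most abundant of them at 242 CPM per kb, had a log2 fold change of 0.11. Of the Akr1c family, Akr1c15 stood above Akr1c14 at 4.6 CPM per kb, with a log2 fold change of -0.06. On the sulfation side, Sult4a1, a brain sulfotransferase relative, was at 146 CPM per kb with a log2 fold change of 0.06. The DHEA sulfotransferases Sult2a1, Sult2a2 and Sult2a6 had no count in any library. Reads shared between these relatives would have been left out, so this does not show that the genes were silent. Sult2b1 of the same group passed the filter, with means of 3.51 CPM in controls and 3.62 CPM after ethanol. Cyp46a1, the neuronal cholesterol 24-hydroxylase, was at 78.4 CPM per kb with a log2 fold change of 0.12. All 4 tested oxysterol hydroxylases had positive values, from 0.12 to 0.29, with unadjusted p above 0.05 and 95% intervals that included 0. Of all genes tested, 52.6% had a positive log2 fold change. Hsd17b12, which also elongates fatty acids, led the other hydroxysteroid dehydrogenases at 53.8 CPM per kb with a log2 fold change of 0.01, and Por, the electron donor of microsomal cytochromes P450, had one of 0.14 (unadjusted p = 0.0566 from edgeR's quasi-likelihood test).

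**Figure D4:**
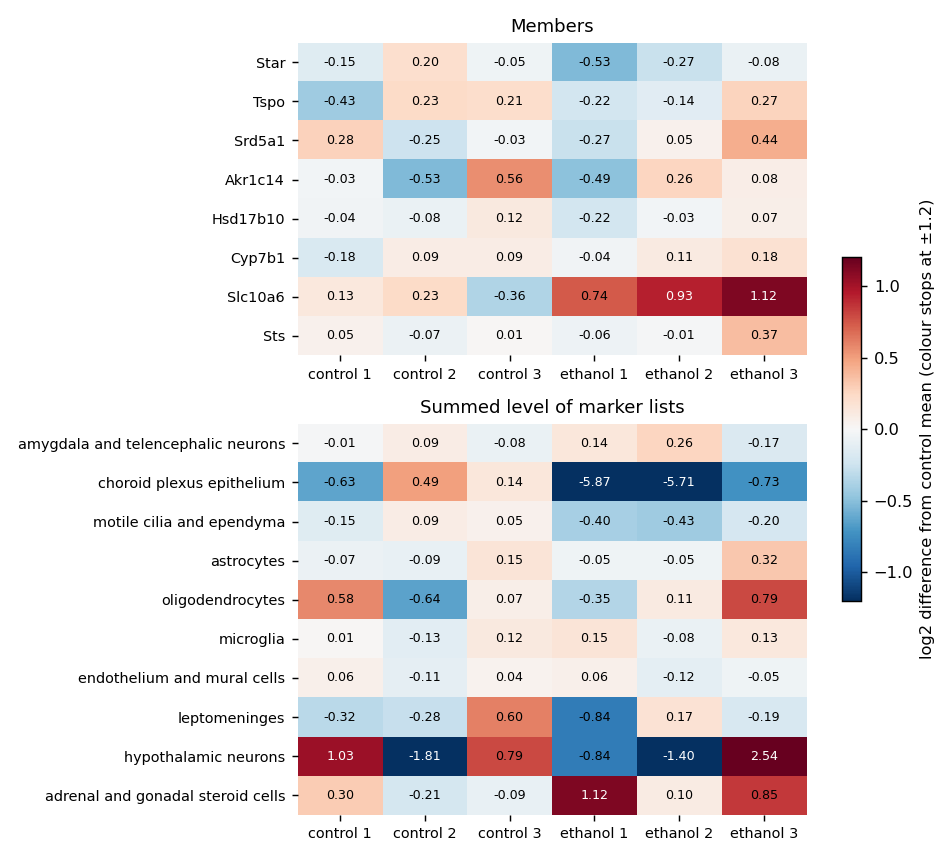
Log2 difference of each library from the control mean for 8 members (top, log2(CPM + 0.05)) and for the summed CPM of 10 marker lists (bottom), with the value written in each cell. Slc10a6 is at 0.74 to 1.12 in the ethanol libraries, and ethanol 3 carries the highest values of Srd5a1 (0.44) and Sts (0.37) and of the oligodendrocyte (0.79) and hypothalamic (2.54) lists.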

How the data were processed

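Single-end reads of 6 stranded poly(A) libraries, sequenced over 3 lanes, were adaptor- and quality-trimmed and aligned with STAR 2.7.0f, per the labels, the submitters' processing notes and the file headers. The authors deposited raw counts per gene from featureCounts 1.6.3 (strand setting 2) on the Rnor_6.0 annotation, per the file headers. Reads with several alignments, or over several genes, were not counted. Symbols came from a RefSeq table by gene ID for 29322 of 38445 genes.

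Differential expression used edgeR 4.0.16 under R 4.3.3. The filterByExpr function selected genes (minimum count 10, minimum total 15), which were scaled by TMM and compared by the quasi-likelihood test, with Benjamini-Hochberg adjustment and a threshold of 0.2. The standard error was the absolute log2 fold change over the square root of F. Profiles used log2(CPM + 0.05). edgeR's likelihood ratio test, limma-voom (limma 3.58.1) and DESeq2 1.42.0, other scalings and filters, the replicate number as a block and leaving out each library were alternatives. The code was tested on simulated data.

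The members, gene lists and motifs were chosen with earlier results of these data known. Named were the 9 members, pathway genes with an unadjusted p below 0.05 or the highest level of their group, the neighbours of Slc10a6 and its 3 nearest profiles. Other genes were named after their values were seen. They were relatives of a member or of another named gene, or stood at the end of a list.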

Additional observations from a re-analysis of the deposited data

How the results depend on the processing

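Of the members, Slc10a6 kept its direction in every alternative, with a log2 fold change of 0.95 under both edgeR's likelihood ratio test and DESeq2, where its adjusted p passed 0.2, and 0.79 to 1.08 when single libraries were left out. Its adjusted p was 0.818 by edgeR's quasi-likelihood method, and it ran from 0.0486 to 1 over all alternatives. Over all genes, the likelihood ratio test called 77 and DESeq2 75, limma-voom called 0, and leaving out 1 library gave 0 to 83, with 83 without ethanol 3 and 4 without ethanol 1. The cause of these differences was not tested. The number of members whose groups did not overlap was 1 to 2 with each library left out. It was 2 without control 1 or ethanol 3 (Star, lower) and without ethanol 1 (Cyp7b1, higher). Groups separate more easily with fewer libraries, and the share of all genes that did so was not computed for these settings. These counts therefore do not set the members apart from other genes.

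The other 7 tested members gave 97 values under alternatives, of which 12 reversed in sign, all of them with a library left out, and 0 had an adjusted p below 0.2. The ranges with each library left out were -0.43 to -0.19 for Star, -0.24 to 0.07 for Tspo, -0.12 to 0.24 for Srd5a1, -0.32 to 0.25 for Akr1c14, -0.12 to 0.02 for Hsd17b10, -0.01 to 0.14 for Cyp7b1 and -0.03 to 0.19 for Sts.

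The replicate numbers of the labels name pools of rats, and nothing states that a number marks a shared litter or day. With the replicate number as a block, the log2 fold change of Slc10a6 was 0.96 and edgeR's adjusted p 0.634, 0 genes were called, and 1 member and 5 pathway genes had an unadjusted p below 0.05. Deviations from the group means correlated, over 14242 genes, by 0.0252, 0.389 and 0.211 for libraries numbered 1, 2 and 3. For libraries with unlike numbers the correlations ran from -0.428 (control 2 with ethanol 3) to 0.306 (control 1 with ethanol 3). These correlations do not decide whether the numbers mark pairs, and they were not taken as pairs because nothing states it.

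Depth limits Cyp11a1, with at most 3 reads per library, and the members at low counts, Star with 37 to 70 and Slc10a6 with 40 to 128 reads per library. How much of their spread is counting error was not tested.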
